A study of Mus musculus with 12 samples.

Results

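The core circadian clock genes described here are Arntl, Clock, Npas2, Per1, Per2, Per3, Cry1, Cry2, Nr1d1 and Nr1d2. They were found by gene symbol in a table of raw read counts per gene from mouse kidney. The table listed 57490 genes, of which 10 were members. Of all genes, 17431 had enough counts to be tested, and these included all 10 members.

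The study asked how the kidney transcriptome of diabetic mice differs from that of non-diabetic mice, and how it differs after treatment with Yiqi Huoxue Yangyin Decoction (YHY), an aqueous herbal extract. Messenger RNA from the kidneys of 12 male mice, each an individual library, was sequenced at 13 weeks of age. All mice were on the BKS background, were kept under 12 h of light per day with lights on at 7:00, and were gavaged daily for 4 weeks. The Ctrl group held 4 db/m mice given purified water, the Model group 4 db/db mice given purified water, and the YHY group 4 db/db mice given YHY at 6.24 g/mL.

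The db allele is a loss-of-function mutation of the leptin receptor gene Lepr, and db/db mice carry it on both chromosomes. The labels list the db/m controls as wild-type in the genotype field, while the husbandry text describes them as heterozygous carriers. The db/db mice entered the study only above a blood glucose limit and the db/m mice only below one, so genotype and glucose cannot be told apart. The clock time at which each kidney was taken is not stated, so no mouse could be placed on the day cycle. The tissue is labelled whole kidney in some fields and renal cortex in the design text.

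Libraries held 24415658 to 33276634 counts, with 29632718 to 33276634 in the Ctrl group, 24415658 to 29784346 in the Model group and 25149764 to 29698342 in the YHY group. Transcripts of the mitochondrial genome made up 19.5% ± 2.12 (SD, n = 4) of counts in the Ctrl group, 52.2% ± 7.68 (SD, n = 4) in the Model group and 56.8% ± 5.21 (SD, n = 4) in the YHY group. The Ctrl libraries lay between 18.4% and 22.7%, the Model libraries between 41.2% and 58.9%, and the YHY libraries between 53.8% and 64.6%. This share separated the db/m libraries from all db/db libraries without overlap. Counts were therefore scaled by edgeR's trimmed mean of M-values (TMM), and levels below are given as CPM, for which the counts of every library were scaled to the same TMM-adjusted total.

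The circadian clock is a transcriptional feedback loop that runs in nearly every cell. A heterodimer of BMAL1, encoded by Arntl, with CLOCK or NPAS2 binds E-box sequences and activates the Per, Cry and Nr1d genes. PER and CRY proteins then repress that heterodimer, while the REV-ERB receptors encoded by Nr1d1 and Nr1d2 repress Arntl, so that Arntl and Nr1d1 peak at opposite times of day, and in the kidney the loop sets daily rhythms of sodium, potassium and water handling.

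Levels were compared between members as FPKM, for which CPM was divided by gene length in kilobases. In the Ctrl group mean FPKM fell in the order Nr1d2 (7.52), Nr1d1 (6.38), Clock (2.81), Per1 (2.63), Per2 (1.51), Npas2 (1.39), Arntl (1.32), Cry1 (1.23), Cry2 (1.11) and Per3 (0.794). In the Model group it fell in the order Per1 (15.8), Nr1d2 (11.9), Nr1d1 (10.4), Per2 (5.54), Cry2 (3.26), Per3 (2.23), Clock (1.69), Cry1 (0.935), Arntl (0.420) and Npas2 (0.375). The order in the YHY group was Per1 (20.05), Per2 (9.18), Nr1d2 (8.14), Nr1d1 (3.68), Cry1 (3.51), Per3 (2.94), Cry2 (2.44), Clock (2.23), Arntl (1.63) and Npas2 (0.879). Neighbours in these orders closer than the larger of their SDs between mice were Nr1d2 and Nr1d1, Clock and Per1, and all from Per2 to Per3 in Ctrl mice, Nr1d2 and Nr1d1, and Arntl and Npas2 in Model mice, and Per2 and Nr1d2 and all from Nr1d1 to Npas2 in YHY mice. Npas2 rested on 7 to 447 counts per library, Arntl on 42 to 645 and Cry1 on 49 to 366, whereas Per1 had 345 to 3425.

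**Figure D1:**
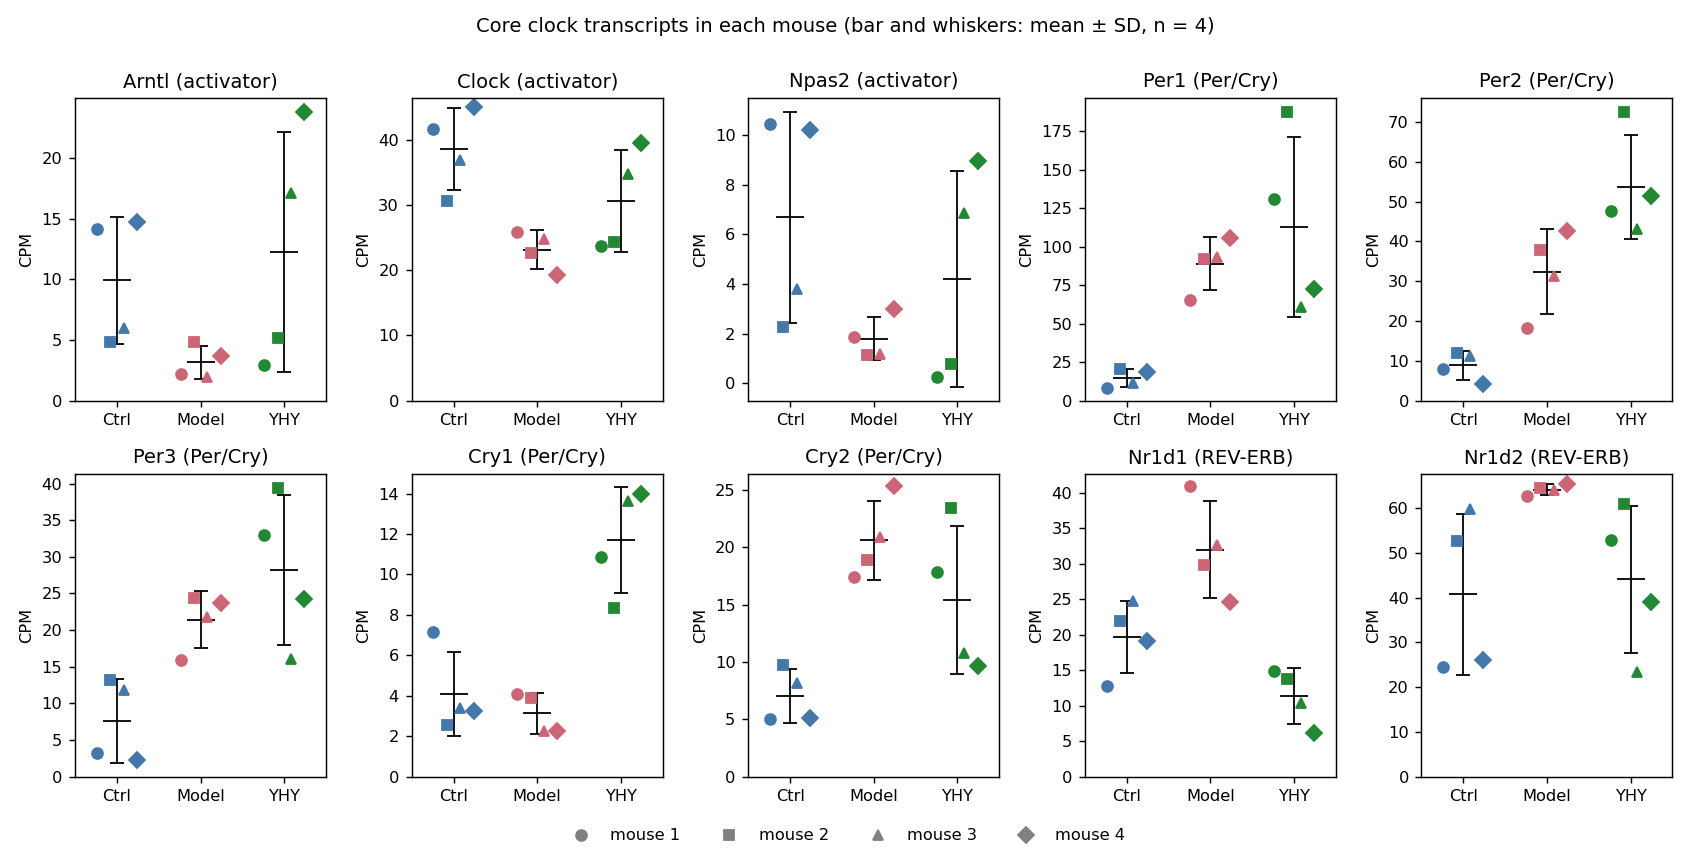
TMM-scaled CPM of each member on a linear axis in 12 mice, with points for single mice and lines for group means and SD of CPM (n = 4 per group). Per1 and Per2 lay higher in all db/db mice than in all Ctrl mice, and Arntl spread over a wide range in the Ctrl and YHY groups.

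In Model kidneys the activator genes Arntl and Clock were lower and 4 of 5 Per and Cry genes were higher than in Ctrl kidneys. For Model against Ctrl, edgeR's quasi-likelihood test with Benjamini-Hochberg adjustment over all 17431 genes called 7 of 10 members at an adjusted P under 0.05, against 38.0% of all genes. Higher calls were made for 5 members, Per1, Per2, Per3, Cry2 and Nr1d1, against 19.6% of all genes, and lower calls for 2, Arntl and Clock, against 18.5%. The groups did not overlap for 7 members, Arntl, Clock, Per1, Per2, Per3, Cry2 and Nr1d2, against 40.2% of all genes. The median absolute log2 fold change was 1.53 over the members and 0.56 over all genes tested, and the medians with sign were 0.68 and 0.04. With single mice left out the number of members called ranged from 4, without Ctrl 1, to 8. Over all genes, 5416 of 17749 were called without Ctrl 1, and 5292 to 7093 with any single mouse left out.

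YHY kidneys differed from Model kidneys by a higher Cry1 and a lower Nr1d1, without overlap, and by a call of higher Arntl, with overlap, that rested on YHY 3 and YHY 4 and ended under 7 of 21 alternatives. For YHY against Model, 3 of 10 members were called, against 13.3% of all genes. Higher calls numbered 2 of 10, against 5.63% of all genes, and lower calls 1 of 10, against 7.62%. The groups did not overlap for 4 members, Per2, Cry1, Nr1d1 and Nr1d2, against 16.1% of all genes. The median absolute log2 fold change was 0.64 over the members and 0.37 over all genes.

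Against Ctrl kidneys, YHY kidneys had higher levels of all Per and Cry genes and a lower level of Nr1d1, with overlap between the groups for Cry2 and Nr1d1. For YHY against Ctrl, 6 of 10 members were called, close to the 50.3% of all genes. Higher calls numbered 5 of 10, against 26.1% of all genes, and lower calls 1 of 10, against 24.2%. The groups did not overlap for 4 members, Per1, Per2, Per3 and Cry1, against 44.6% of all genes. The median absolute log2 fold change was 0.96 over the members and 0.71 over all genes. The comparisons share mice, since Model and Ctrl each enter more than 1 of them, so their results are not independent.

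The choice of scaling moved the share of higher calls. Between Model and Ctrl, 3412 of 6631 called genes were higher with TMM and 1547 of 7214 with library size alone, where the median log2 fold change of all genes moved from 0.04 to −0.39. Between YHY and Ctrl, 4547 of 8762 called genes were higher with TMM and 2365 of 8342 with library size alone, where that median moved from 0.10 to −0.33. Upper-quartile scaling moved the medians to 0.14 and 0.22. With the mitochondrial transcripts removed before TMM scaling and the fit, the same members were called as in the fit reported, in all 3 comparisons. Relative to these shifts the called members kept their direction under each scaling tried, although the call of Nr1d1 in Model against Ctrl ended with library size alone, at a log2 fold change of 0.29 (adjusted P = 0.427).

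**Figure D2:**
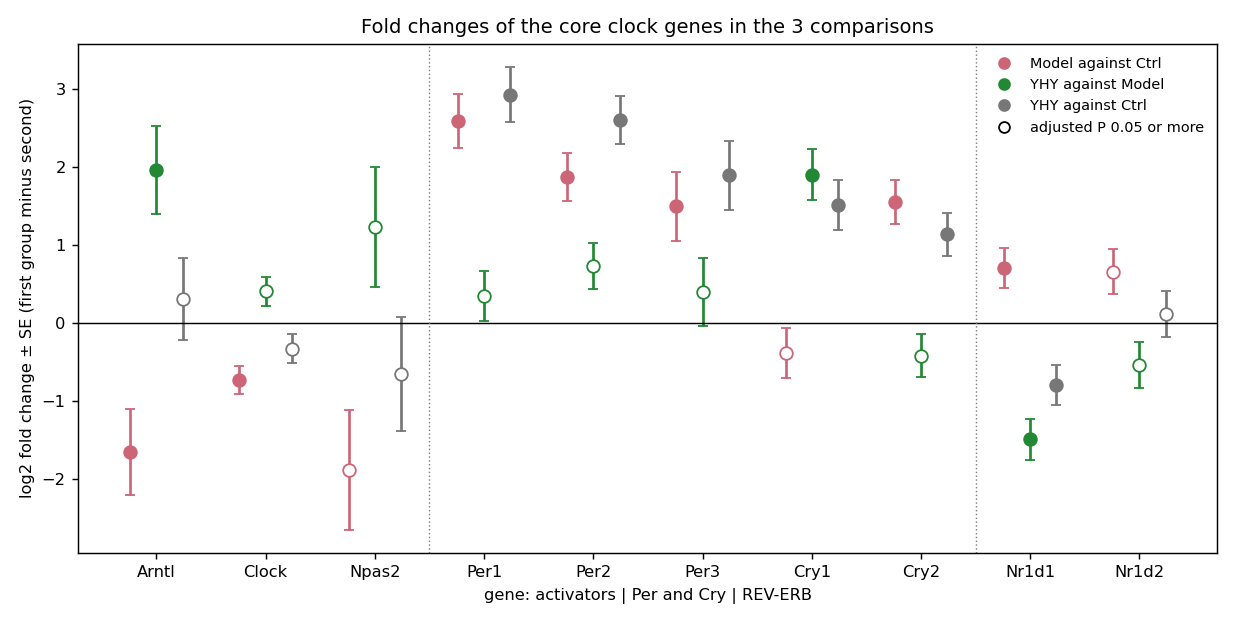
Log2 fold change of each member in the 3 comparisons, with bars for 1 standard error and filled points for adjusted P under 0.05 (edgeR, 4 mice per group). The Per genes and Cry2 lie above 0 in both comparisons with Ctrl, whereas Nr1d1 changes sides between Model against Ctrl and YHY against Model.

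Arntl encodes BMAL1, the obligate partner of CLOCK and NPAS2. The gene lies at chr7:112806672-112913333 on the plus strand in the authors' GRCm39 annotation. RefSeq promoter windows of GRCm38.p6, from 250 bases before to 50 bases after a gene start, were matched by symbol for 9 of 10 members and gave 13 windows. They were searched on both strands for the E-box CACGTG, the E-prime box CACGTT, the ROR element core TAGGTCA, the D-box TTATGNAA, and the cyclic AMP response element TGACGTCA with its short form TGACGT, which lies within the long form. Of all 32851 windows in that table, 7.15% held the E-box, 4.68% the E-prime box, 2.61% the ROR element core, 3.38% the D-box, 1.79% the long and 7.51% the short cyclic AMP response element. An Arntl window at chr7:113207261-113207560 (GRCm38.p6, plus strand) is shown because REV-ERB and ROR receptors share the ROR element and Arntl was called opposite to Nr1d1 where Model was set against Ctrl and where YHY was set against Model. It held TAGGTCA beginning 31 bases after the start, in capitals, and the other Arntl window held none of the motifs. None were found in the 3 windows of Clock or in those of Npas2 and Nr1d2, and the member not matched was Per2.
Arntl promoter: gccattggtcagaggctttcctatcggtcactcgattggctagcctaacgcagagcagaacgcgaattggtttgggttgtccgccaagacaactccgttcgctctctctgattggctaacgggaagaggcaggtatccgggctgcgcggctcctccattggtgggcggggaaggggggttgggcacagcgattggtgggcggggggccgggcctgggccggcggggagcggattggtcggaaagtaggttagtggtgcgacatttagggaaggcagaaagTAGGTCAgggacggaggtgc

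Arntl stood at 14.2, 4.84, 6.02 and 14.7 CPM in Ctrl mice 1 to 4, at 2.19, 4.81, 1.92 and 3.72 CPM in Model mice 1 to 4, and at 2.94, 5.14, 17.1 and 23.8 CPM in YHY mice 1 to 4. All Model mice lay below all Ctrl mice, by a narrow margin between Model 2 and Ctrl 2. YHY 1 and YHY 2 lay near the Model range, whereas YHY 3 and YHY 4 held the highest levels of all mice. Relative to Ctrl, Model mice had a log2 fold change of −1.66 (SE 0.56, adjusted P = 0.0276, lower in 4 of 4 mice). The call ended without Ctrl 1 (−1.49, adjusted P = 0.0657), Ctrl 4 (−1.46, 0.0637), Model 1 (−1.57, 0.0604), Model 3 (−1.49, 0.0807) or Model 4 (−1.75, 0.051). Relative to Model, YHY mice had a value of 1.96 (SE 0.56, adjusted P = 0.0309), although the groups overlapped and an exact permutation test of CPM gave P = 0.114. That call ended without Model 1 (1.81, adjusted P = 0.0888), Model 3 (1.79, 0.0998), Model 4 (2.05, 0.0588), YHY 3 (1.76, 0.069) or YHY 4 (1.42, 0.0833), and in the 9 mice whose means the authors tabulated (adjusted P = 0.158). The same call also ended with the replicate number as a block. Between YHY and Ctrl mice the levels differed within the spread between mice, with a log2 fold change of 0.30 (adjusted P = 0.659), and its sign turned without YHY 4 (−0.24), with library size alone (−0.15) and in those 9 mice (−0.50).

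Clock, which encodes the usual partner of BMAL1, had the smallest SD of log2 CPM when pooled over the 3 groups. Its gene lies at chr5:76357715-76452639 on the minus strand. Clock stood at 41.7, 30.6, 36.9 and 45.1 CPM in Ctrl mice 1 to 4, at 25.9, 22.7, 24.8 and 19.2 CPM in Model mice, and at 23.8, 24.4, 34.8 and 39.6 CPM in YHY mice. All Model mice lay below all Ctrl mice, and YHY 3 and YHY 4 lay within the Ctrl range while YHY 1 and YHY 2 lay within the Model range. The log2 fold change in Model against Ctrl was −0.74 (SE 0.18, adjusted P = 0.00512). It was 0.40 in YHY against Model (adjusted P = 0.159) and −0.33 in YHY against Ctrl (adjusted P = 0.142), neither past the threshold. The latter passed it without YHY 4 (−0.48, adjusted P = 0.0364), in the 9 mice (−0.61, 0.0126) and with library size alone (−0.77, 0.0131).

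Npas2 encodes a paralogue of CLOCK that can take its place in the heterodimer, and its gene lies at chr1:39232812-39402317 on the plus strand. Npas2 stood at 10.4, 2.28, 3.80 and 10.2 CPM in Ctrl mice 1 to 4, at 1.87, 1.14, 1.19 and 2.99 CPM in Model mice, and at 0.267, 0.774, 6.85 and 8.95 CPM in YHY mice. Ctrl 1, Ctrl 4, YHY 3 and YHY 4, the mice with the most Arntl, also had the most Npas2. The Model and Ctrl groups overlapped through Model 4 and Ctrl 2, and the log2 fold change of −1.89 (SE 0.77) did not pass the threshold (adjusted P = 0.0634). It passed without Ctrl 2 (−2.17, adjusted P = 0.0427), YHY 1 (0.0214), YHY 2 (0.0449) or YHY 4 (0.0474), with library size alone (0.0225), with no filter on low counts (0.00232) and in a fit of the 8 Model and Ctrl mice (0.0051). For YHY against Model the value was 1.23 (adjusted P = 0.31) and in YHY against Ctrl −0.66 (adjusted P = 0.48). Over all alternatives the former lay between 0.56 and 1.62 and the latter between −1.63 and −0.27. The spans of Clock and Npas2 overlap those of the processed pseudogene Ube2n-ps1 (10 to 91 counts per library) and of Gm3617 (0 to 96 counts) on their own strand, so reads in shared stretches cannot be assigned with certainty.

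Per1, Per2 and Per3 encode the PERIOD proteins, which carry the cryptochromes into the nucleus and hold the BMAL1 heterodimer in check. Per1, Per2, Per3 and Cry2 were higher in all Model mice than in all Ctrl mice, and the promoters of Per1 and Per3 are shown as examples. The Per1 window at chr11:69098699-69098998 (GRCm38.p6, plus strand) held the E-box CACGTG beginning 166 bases before the start and the D-box TTATGCAA beginning 24 bases before it. A further Per1 window held TGACGT beginning 132 bases before its own start. The Per3 window at chr4:151044616-151044915 (GRCm38.p6, minus strand) held the D-box TTATGTAA beginning 205 and 158 bases before the start, and capitals mark these motifs.
Per1 promoter: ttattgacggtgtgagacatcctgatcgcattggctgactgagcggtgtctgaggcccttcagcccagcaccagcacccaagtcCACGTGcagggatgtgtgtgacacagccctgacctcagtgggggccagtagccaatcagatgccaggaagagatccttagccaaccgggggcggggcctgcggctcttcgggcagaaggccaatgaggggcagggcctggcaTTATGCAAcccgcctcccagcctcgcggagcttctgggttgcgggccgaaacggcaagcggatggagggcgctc
Per3 promoter: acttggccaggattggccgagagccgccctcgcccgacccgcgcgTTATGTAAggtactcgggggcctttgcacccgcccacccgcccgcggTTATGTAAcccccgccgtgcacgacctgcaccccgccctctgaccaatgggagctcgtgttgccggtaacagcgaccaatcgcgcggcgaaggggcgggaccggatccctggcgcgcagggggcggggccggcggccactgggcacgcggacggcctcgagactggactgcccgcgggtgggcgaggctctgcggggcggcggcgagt

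Per1 lies at chr11:68986043-69000786 on the plus strand in the GRCm39 annotation. Its levels were 8.29, 20.8, 11.5 and 18.6 CPM in Ctrl mice 1 to 4, 65.1, 91.9, 93.1 and 105.9 CPM in Model mice, and 130.7, 187.4, 60.9 and 72.5 CPM in YHY mice. Every db/db mouse lay above every db/m mouse, and among YHY mice the pair with low Arntl, YHY 1 and YHY 2, had the highest Per1. Between Model and Ctrl the log2 fold change was 2.59 (SE 0.35, adjusted P = 5.42e-05, higher in 4 of 4 mice). Between YHY and Ctrl it was 2.93 (adjusted P = 7.43e-06). Between YHY and Model it was 0.34 (adjusted P = 0.533), and its sign turned to −0.017 without YHY 2.

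Per2 lies at chr1:91343704-91387046 on the minus strand. Its levels were 7.88, 12.0, 11.3 and 4.19 CPM in Ctrl mice 1 to 4, 18.2, 37.8, 31.3 and 42.6 CPM in Model mice, and 47.7, 72.6, 43.2 and 51.4 CPM in YHY mice. The groups stood in order with no overlap, Ctrl lowest and YHY highest. The log2 fold change was 1.87 in Model against Ctrl (SE 0.31, adjusted P = 0.000234) and 2.60 in YHY against Ctrl (adjusted P = 7.39e-06). Between YHY and Model it was 0.73 and did not pass the adjustment (adjusted P = 0.115), although all 4 YHY mice were higher. An exact permutation test of CPM in these groups gave P = 0.0286, the smallest 2-sided value that 4 against 4 mice allow. Without a filter on low counts the adjusted P was 0.0255, and over all alternatives it ranged from 0.0255 to 0.279.

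Per3 ranged from 2.23 to 13.2 CPM in Ctrl mice, from 15.9 to 24.4 CPM in Model mice and from 16.04 to 39.4 CPM in YHY mice. Its gene lies at chr4:151088109-151129122 on the minus strand. Ctrl 2 and Ctrl 3 held 13.2 and 11.8 CPM while Ctrl 1 and Ctrl 4 held 3.22 and 2.23 CPM, a split within the controls opposite to that of Arntl. The log2 fold change was 1.50 in Model against Ctrl (SE 0.44, adjusted P = 0.0144), and the call ended without Ctrl 1 (1.19, adjusted P = 0.0506). It was 1.89 in YHY against Ctrl (adjusted P = 0.00229) and 0.39 in YHY against Model (adjusted P = 0.594). The span of Per3 overlaps that of Camta1 on the same strand, which had 154 to 529 counts per library.

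Cry1 encodes the cryptochrome that is the stronger repressor of the BMAL1 heterodimer, and its transcript usually follows those of Per1 and Per2 with a delay. Its promoter is shown because Cry1 was the only Per or Cry gene called in YHY against Model. The window at chr10:85185005-85185304 (GRCm38.p6, minus strand) held the E-box CACGTG beginning 60 bases before the start and the E-prime box as AACGTG beginning 79 bases before it, both in capitals.
Cry1 promoter: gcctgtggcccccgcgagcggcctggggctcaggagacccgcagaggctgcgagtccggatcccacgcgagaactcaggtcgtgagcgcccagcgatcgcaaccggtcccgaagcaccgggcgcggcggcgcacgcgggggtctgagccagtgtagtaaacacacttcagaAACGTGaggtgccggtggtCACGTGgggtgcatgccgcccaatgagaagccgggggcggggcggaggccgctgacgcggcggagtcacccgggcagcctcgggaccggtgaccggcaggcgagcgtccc

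Cry1 stood at 7.16, 2.56, 3.40 and 3.26 CPM in Ctrl mice 1 to 4, at 4.09, 3.91, 2.24 and 2.27 CPM in Model mice, and at 10.9, 8.35, 13.6 and 13.99 CPM in YHY mice. All YHY mice lay above all other mice, and Ctrl and Model mice overlapped. The log2 fold change was 1.90 in YHY against Model (SE 0.33, adjusted P = 0.00239) and 1.51 in YHY against Ctrl (adjusted P = 0.00103), higher in 4 of 4 mice in both. Model and Ctrl differed by −0.39 (adjusted P = 0.367). The gene lies at chr10:84967564-85020928 on the minus strand.

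Cry2, the other cryptochrome gene, ranged from 5.04 to 9.77 CPM in Ctrl mice, from 17.4 to 25.4 CPM in Model mice and from 9.65 to 23.4 CPM in YHY mice. It lies at chr2:92233991-92264388 on the minus strand. All Model mice exceeded all Ctrl mice, and among YHY mice YHY 1 and YHY 2 stood at 17.9 and 23.4 CPM and YHY 3 and YHY 4 at 10.8 and 9.65 CPM, the latter just inside the Ctrl range. The log2 fold change was 1.55 in Model against Ctrl (SE 0.28, adjusted P = 0.00052), 1.13 in YHY against Ctrl (adjusted P = 0.00319) and −0.42 in YHY against Model (adjusted P = 0.337). Its promoter window held AACGTG beginning 166 bases before the start. The span of Cry2 overlaps that of D930015M05Rik on the opposite strand, with 0 to 14 counts per library.

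Nr1d1 encodes REV-ERB alpha, a haem-binding receptor that represses Arntl. Its promoter window at chr11:98775328-98775627 (GRCm38.p6, minus strand) is shown because Nr1d1 was called in each comparison, and it held the E-prime box as AACGTG beginning 28 bases before the start, in capitals.
Nr1d1 promoter: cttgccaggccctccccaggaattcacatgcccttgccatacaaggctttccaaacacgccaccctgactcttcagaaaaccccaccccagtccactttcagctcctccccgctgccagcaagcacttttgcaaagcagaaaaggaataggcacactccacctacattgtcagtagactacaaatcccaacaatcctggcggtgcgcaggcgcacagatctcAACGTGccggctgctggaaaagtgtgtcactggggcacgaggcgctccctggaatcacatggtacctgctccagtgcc

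Nr1d1 stood at 12.8, 21.9, 24.7 and 19.1 CPM in Ctrl mice 1 to 4, at 40.9, 29.8, 32.6 and 24.5 CPM in Model mice, and at 14.9, 13.8, 10.4 and 6.20 CPM in YHY mice. Model mice were the highest, YHY mice were all below all Model mice, and Ctrl mice lay between them with overlap on both sides. Between YHY and Model the log2 fold change was −1.50 (SE 0.26, adjusted P = 0.00231, lower in 4 of 4 mice). Between YHY and Ctrl it was −0.80 (adjusted P = 0.0164), with overlap through Ctrl 1, and the adjusted P was 0.0518 in the 9 mice and from 0.00118 to 0.0518 over all alternatives.

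In Model against Ctrl, Nr1d1 had a log2 fold change of 0.70 (SE 0.25, adjusted P = 0.0375), with overlap between Model 4 and Ctrl 3. The call ended without Ctrl 1 (0.50, adjusted P = 0.163), Ctrl 4 (0.64, 0.101), Model 1 (0.50, 0.156), Model 2 (0.73, 0.061) or Model 3 (0.69, 0.0755), and in the 9 mice (0.56, 0.0623). The gene lies at chr11:98658758-98666159 on the minus strand and its span overlaps that of the thyroid hormone receptor gene Thra on the opposite strand. Thra had 507 to 1508 counts per library and Nr1d1 160 to 1270. Whether the counting used strand is not given in the sources used here, so reads from the shared stretch of this pair cannot be told apart.

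Nr1d2 encodes REV-ERB beta and lies at chr14:4230569-4265642 on the plus strand. It stood at 24.5, 52.6, 59.7 and 26.0 CPM in Ctrl mice 1 to 4, at 62.6, 64.5, 63.9 and 65.4 CPM in Model mice, and at 52.9, 60.8, 23.4 and 39.0 CPM in YHY mice. All Model mice lay above all other mice within a range of few CPM, while Ctrl and YHY mice spread widely and overlapped. In Model against Ctrl the log2 fold change was 0.66 (SE 0.29) and did not pass the adjustment (adjusted P = 0.0876), although an exact permutation test of CPM gave P = 0.0286. It passed without Ctrl 3 (0.85, adjusted P = 0.0411), with no filter on low counts (0.0267) and in a fit of the 8 Model and Ctrl mice (0.045). Over all alternatives the log2 fold change lay between 0.25 and 0.85, with adjusted P from 0.0267 to 0.481. In YHY against Model the log2 fold change was −0.54 (adjusted P = 0.235), with an exact permutation P of 0.0286. Between YHY and Ctrl it was 0.11 (adjusted P = 0.771), and its sign turned without Ctrl 1 (−0.13), Ctrl 4 (−0.12) or YHY 2 (−0.09), and with library size alone (−0.32). A gene described by the protein of Nr1d2, Gm5827, had 0 to 10 counts.

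Levels varied widely between mice of the same group, and 9 of 10 members had a larger spread than the median gene. The pooled within-group SD of log2 CPM had a median of 0.52 over the members and 0.28 over 13033 genes with a mean of at least 50 counts. Npas2 had an SD of 1.22, exceeded by 0.199% of those genes, Arntl 0.95, exceeded by 0.729%, and Per3 0.77, exceeded by 1.8%. Per1, Per2 and Nr1d2 had SDs of 0.58, 0.52 and 0.52, Cry1, Cry2 and Nr1d1 of 0.45, 0.45 and 0.43, and Clock 0.27. Levels of the same gene within a group spanned up to 33.5-fold for Npas2 in YHY mice and 8.11-fold for Arntl in YHY mice, whereas Nr1d2 spanned 1.05-fold in Model mice.

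The levels of the activator and its repressors were set against each other as a ratio within each mouse. These ratios reuse the levels given above and are not separate evidence. Without the time of sampling no phase can be read from them. The log2 ratio of Arntl to Nr1d1 CPM, with 0.5 CPM added to each, was 0.14, −2.07, −1.95 and −0.37 in Ctrl mice 1 to 4, −3.94, −2.51, −3.77 and −2.57 in Model mice, and −2.17, −1.34, 0.69 and 1.86 in YHY mice. Model mice held the lowest ratios, with no overlap with either other group. The mean ratio was −3.20 in Model and −1.06 in Ctrl mice, a difference of −2.14 (exact permutation P = 0.0286, adjusted P = 0.0381 over 4 ratio tests), and the difference of YHY from Model was 2.96 (exact permutation P = 0.0286, adjusted P = 0.0381). The first adjusted P rose to 0.114 without Model 1 (−1.89) or Model 3 (−1.95) and to 0.0571 without Model 2 (−2.37) or Model 4 (−2.35). The second rose to 0.114 without Model 1 (2.71) or Model 3 (2.77) and to 0.0762 without Model 2 (3.19) or Model 4 (3.17). With 3 mice in a group the smallest exact 2-sided P is 0.0286, and in the 9 mice, where 3 stood against 3, it was 0.1.

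The log2 ratio of Arntl to Per2 was 0.81, −1.23, −0.86 and 1.70 in Ctrl mice, −2.79, −2.85, −3.72 and −3.35 in Model mice, and −3.81, −3.70, −1.31 and −1.09 in YHY mice. Model mice again lay below all Ctrl mice, but YHY mice split, with YHY 1 below all Model mice, YHY 2 within the Model range and YHY 3 and YHY 4 above it. The difference of Model from Ctrl was −3.28 (exact permutation P = 0.0286, adjusted P = 0.0381). It was −3.41 without Model 1 and −3.10 without Model 3 (adjusted P = 0.114 for both), and −3.39 without Model 2 and −3.22 without Model 4 (adjusted P = 0.0571 for both). The difference of YHY from Model was 0.70 (exact permutation P = 0.4, adjusted P = 0.4).

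**Figure D3:**
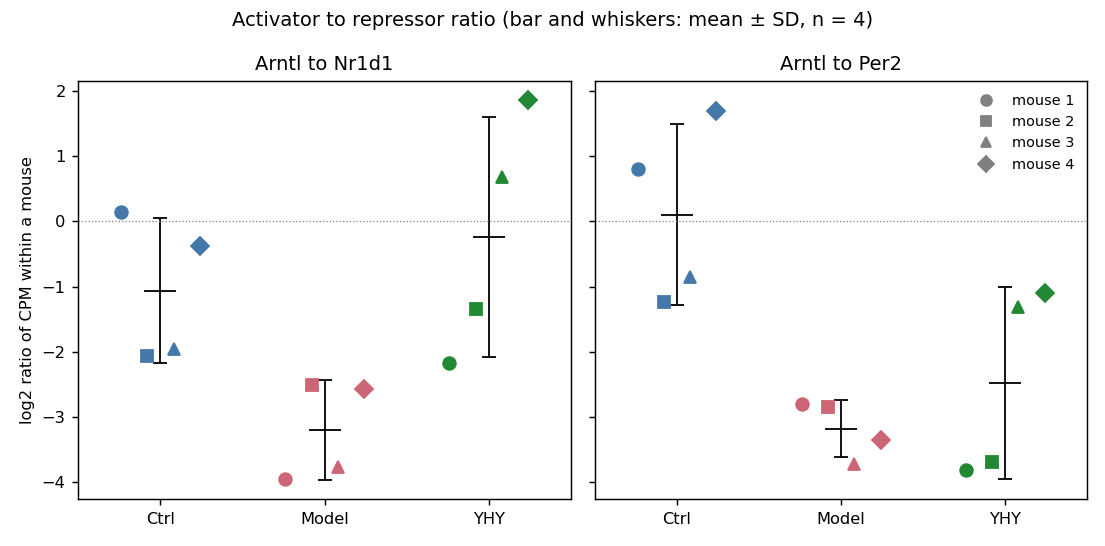
Log2 ratio of Arntl to Nr1d1 and of Arntl to Per2 in each mouse, with lines for group means and SD (n = 4 per group). Model mice lie below −2.5 on both ratios, and the YHY mice reach above 0 only on the ratio to Nr1d1.

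Within groups, 2 of 9 members varied with Arntl past the threshold by Pearson's r and 0 of 9 by Spearman's rho. Each log2 CPM was taken as its deviation from the group mean, and the deviation of Arntl was correlated with that of the 9 other members over 12 mice, with permutation within groups (13824 arrangements) and adjustment over 9 relations. Npas2 followed Arntl with r = 0.92 (permutation P = 0.0105, adjusted P = 0.0472) and rho = 0.94 (permutation P = 0.025, adjusted P = 0.0705). Nr1d1 ran opposite with r = −0.82 (permutation P = 0.00738, adjusted P = 0.0472) and rho = −0.79 (permutation P = 0.0122, adjusted P = 0.0705). No other relation passed the adjustment, with r of 0.75 for Clock, −0.80 for Cry2, −0.73 for Nr1d2, −0.63 for Per3, −0.56 for Per1, 0.53 for Cry1 and −0.27 for Per2. Their rho values were 0.90, −0.87, −0.83, −0.78, −0.64, 0.52 and −0.48, and their permutation P values ran from 0.0396 to 0.371 for r and from 0.0181 to 0.169 for rho, with adjusted P from 0.0904 to 0.371 and from 0.0705 to 0.169. Of 12844 other genes with a symbol and a mean of at least 50 counts, 0.0311% had deviations correlated with those of Arntl, in either direction, at least as strongly as Npas2, and 0.88% at least as strongly as Nr1d1. For the remaining members this share ran from 1.37% for Cry2 to 51.7% for Per2, with 14% for Per1 and 16.9% for Cry1.

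These relations rest on few mice, and the labels give no batch within which to repeat them. Without YHY 3 and YHY 4, the mice farthest from the median of Arntl, r was 0.77 for Npas2 (permutation P = 0.0807, adjusted P = 0.363) and −0.70 for Nr1d1 (permutation P = 0.0642, adjusted P = 0.363). Without YHY 1 and YHY 4, the mice farthest in the deviation of Arntl, r was 0.84 for Npas2 (permutation P = 0.066, adjusted P = 0.24) and −0.73 for Nr1d1 (permutation P = 0.0408, adjusted P = 0.24). Both rules leave out mice by Arntl itself and so narrow its range. With single mice left out, r lay between 0.88 and 0.99 for Npas2 and between −0.87 and −0.74 for Nr1d1, and in 11 of 12 such runs the adjusted P of each was above the threshold. The levels of Arntl themselves fell in separate ranges, with a gap of 1.17 on the log2 scale between Ctrl 3 and Ctrl 1 that left 8 mice below and 4 above, while the deviations showed no such gap beyond 0.66. Over the 8 mice under 10 CPM of Arntl, an alternative chosen after seeing the data, r was 0.37 for Npas2 and −0.56 for Nr1d1, and 6 other signs turned. That choice also splits the mice by Arntl itself and keeps 2 Ctrl and 2 YHY mice, so these values do not show whether the relations hold. The 4 mice above the gap were Ctrl 1, Ctrl 4, YHY 3 and YHY 4, and too few to give a value of their own.

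Counted over pairs of members, as a description with no test, the deviations of the 3 pairs among activators were all positively correlated. All 6 pairs of an activator with Nr1d1 or Nr1d2 were negatively correlated, with r from −0.82 to −0.52. Of the 15 pairs of an activator with a Per or Cry gene, 12 were negative and the 3 positive ones all involved Cry1. The strongest of these was the pair of Clock and Cry2 at r = −0.93. Among the 10 pairs of Per and Cry genes, 6 were positive, and the 4 negative ones all involved Cry1, with r = −0.81 for Cry1 and Per1. Of the 10 pairs of these genes with Nr1d1 or Nr1d2, 7 were positive.

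**Figure D4:**
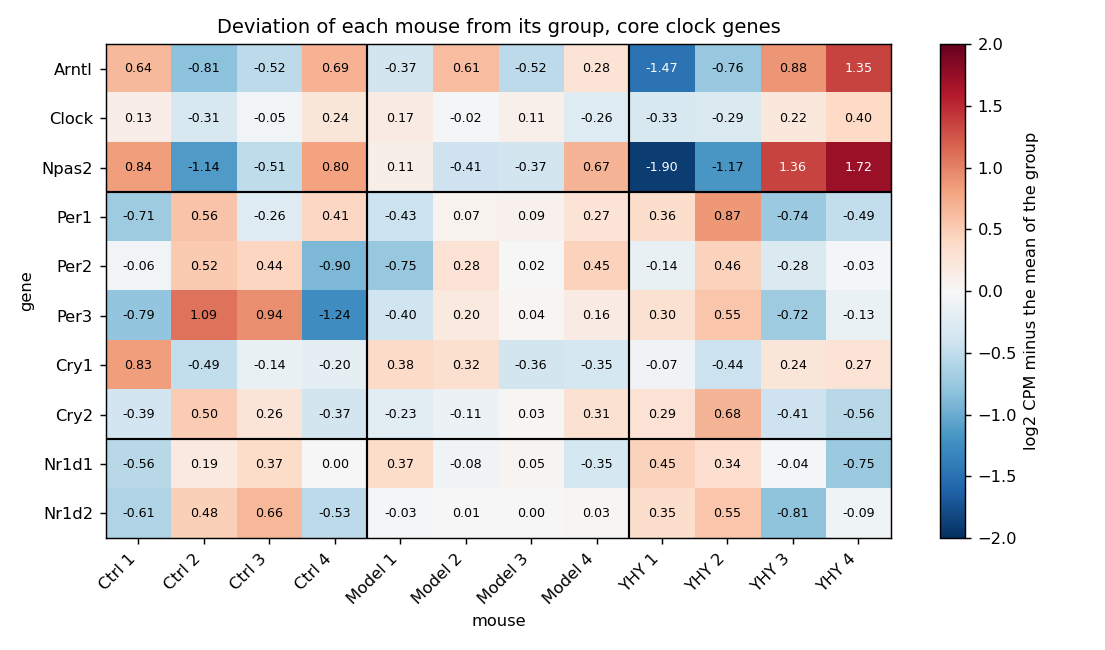
Deviation of log2 CPM from the group mean for each member (vertical) in each of 12 mice (horizontal), with colour from negative to positive. Arntl, Clock and Npas2 are positive in Ctrl 1, Ctrl 4, YHY 3 and YHY 4, where Per3, Cry2 and Nr1d2 are negative.

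Among the same 12844 genes, those most like Arntl over the 12 mice in log2 CPM were Tubd1 (r = 0.94), Ncoa4 (0.91), Hs6st1 (0.91), Ccdc93 (0.90) and Ing3 (0.90). Those most unlike it were Angptl2 (−0.93), Dbp (−0.92), Angpt1 (−0.89), Sgpl1 (−0.87) and Macroh2a2 (−0.87). These values include differences between groups, and the correlations of deviations from group means were 0.89, 0.84, 0.86, 0.89 and 0.85 for the former and −0.92, −0.86, −0.86, −0.79 and −0.85 for the latter. Dbp, a clock output gene, was the only gene of the lists below among these 10. The order was taken over the same 12 mice, and no P is given for genes chosen from so many.

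The bZIP factors driven by the clock bind the D-box, Dbp, Tef and Hlf as activators and Nfil3 as their repressor. Dbp stood at 1.66, 26.6, 26.7 and 3.46 CPM in Ctrl mice 1 to 4, at 44.8, 33.6, 48.7 and 39.7 CPM in Model mice, and at 16.03, 16.2, 3.91 and 2.25 CPM in YHY mice. Model mice lay above all other mice, and Ctrl 1, Ctrl 4, YHY 3 and YHY 4 were the lowest, the reverse of Arntl. With that spread neither difference of Dbp passed the adjustment, at log2 fold changes of 1.52 in Model against Ctrl (adjusted P = 0.0992) and −2.13 in YHY against Model (adjusted P = 0.0629). The former passed with no filter on low counts (0.00374) and with the replicate number as a block (0.0486). The latter passed with no filter (0.000281), in a fit of the 8 YHY and Model mice (0.0253) and without Ctrl 1 (0.0337) or Ctrl 4 (0.0457).

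Nfil3 stood at 11.1, 4.56, 4.21 and 7.58 CPM in Ctrl mice 1 to 4, at 2.51, 2.43, 1.37 and 2.91 CPM in Model mice, and at 4.999, 12.0, 7.93 and 19.7 CPM in YHY mice. It was lowest in all Model mice. Its log2 fold change was −1.57 in Model against Ctrl (SE 0.41, adjusted P = 0.00663) and 2.27 in YHY against Model (SE 0.41, adjusted P = 0.00339). Of the 4 bZIP genes, Tef was also higher in Model against Ctrl (1.05, adjusted P = 0.0107), a call that ended with library size alone (0.64, 0.053). Hlf was lower in YHY against Model (−0.73, adjusted P = 0.017), which ended without Model 3 (adjusted P = 0.0523). Against Ctrl, YHY mice had higher Tef (1.03, adjusted P = 0.00851), with overlap between the groups and no call with library size alone (0.57, 0.0738), and lower Hlf (−0.94, adjusted P = 0.000539). The list's median log2 fold changes were 0.42, −0.38 and 0.04 in Model against Ctrl, YHY against Model and YHY against Ctrl, where all genes had 0.04, 0.02 and 0.10. Beside the list counts here and below, 38.0%, 13.3% and 50.3% of all genes were called in these comparisons.

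Among 8 other clock transcription factors, 2 were higher and 1 lower in Model against Ctrl, with a median log2 fold change of 0.41. Ciart, a repressor of the BMAL1 heterodimer, rose by 3.90 on the log2 scale (SE 0.77, adjusted P = 0.000966), and Bhlhe41, an E-box-binding repressor, by 1.69 (adjusted P = 0.00155). Rora, a receptor that activates Arntl through the ROR element, was lower at −0.58 (adjusted P = 0.00798).

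In YHY against Model, edgeR called 0 of these 8 genes, with 0 at an unadjusted P under 0.05, DESeq2 also called 0, and the median log2 fold change was −0.01. Against Ctrl, 4 of 8 genes were higher in YHY mice, with a median of 0.39. Ciart (3.77, SE 0.76, adjusted P = 0.00071) and Cipc, which encodes a CLOCK-interacting repressor (0.53, adjusted P = 0.0077), remained called without any single mouse, although YHY and Ctrl mice overlapped in Ciart. With single mice left out the log2 fold change of Ciart lay between 2.34 and 4.14. The call of Bhlhe41 (1.02, adjusted P = 0.0246) ended without Ctrl 1, Ctrl 4 or YHY 4 (adjusted P up to 0.0922), and that of Timeless (0.93, adjusted P = 0.0316) without Ctrl 1, Ctrl 2, Ctrl 3, YHY 1, YHY 2 or YHY 3 (adjusted P up to 0.104). With library size alone the calls of Cipc, Bhlhe41 and Timeless ended (adjusted P = 0.674, 0.161 and 0.267).

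Of 9 kinases and ubiquitin pathway genes that act on clock proteins, 3 were called in Model against Ctrl, against 38.0% of all genes. Usp2, a deubiquitinase whose gene is itself rhythmic, was higher at 1.86 (SE 0.29, adjusted P = 0.000162), Csnk1e, a kinase of PER proteins, at 0.66 (adjusted P = 0.00736), and Fbxw11, a ubiquitin ligase subunit, was lower at −0.61 (adjusted P = 0.00648). The call of Csnk1e ended with library size alone (0.22, adjusted P = 0.497). Between YHY and Model, Fbxw11 alone of the 9 was called, lower at −0.69 (adjusted P = 0.011). The same 3 genes were called between YHY and Ctrl, Usp2 at 1.31 (adjusted P = 0.00124), Csnk1e at 0.99 (adjusted P = 0.000204) and Fbxw11 at −1.30 (adjusted P = 8.83e-06), and that of Csnk1e again ended with library size alone (0.58, adjusted P = 0.0552). The list's medians were 0.13, −0.12 and 0.14 in the 3 comparisons.

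Of 6 metabolic inputs to the clock, Prkaa2, a catalytic subunit of AMP-activated kinase, was the only gene called in Model against Ctrl, lower at −0.91 (SE 0.17, adjusted P = 0.00057). Between YHY and Model it was lower again at −0.73 (adjusted P = 0.0114). There Sirt1, an NAD-dependent deacetylase, was higher at 0.95 (adjusted P = 0.0146), and Nampt, the enzyme that limits NAD salvage, at 0.69 (adjusted P = 0.00783). With library size alone the calls of Prkaa2 and Nampt in YHY against Model ended, at nearly the same log2 fold changes (−0.72, adjusted P = 0.0611, and 0.70, adjusted P = 0.0668). DESeq2 called 4 genes there, with Prkaa1, the other catalytic subunit gene, also higher (0.43, adjusted P = 0.0256, against 0.0522 in edgeR). Of the 6, 4 genes were called between YHY and Ctrl, Prkaa2 at −1.64 (adjusted P = 2.2e-06), Ppara, a nuclear receptor gene, at 1.00 (adjusted P = 0.00668), Sirt1 at 0.77 (adjusted P = 0.00978) and Nampt at 0.60 (adjusted P = 0.00325). With library size alone only Prkaa2 remained (adjusted P = 0.118, 0.278 and 0.51 for the others). The list's medians were −0.13, 0.48 and 0.42.

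Genes linked to the clock and to kidney transport formed a list of 9, of which 8 were tested and Avpr2, the vasopressin receptor gene, was not because of low counts. In Model against Ctrl, 3 were higher and 2 lower, with a median of 0.18. Wnk4, a kinase that regulates the thiazide-sensitive cotransporter, was higher at 1.35 (SE 0.18, adjusted P = 5.15e-05), and Slc12a3, which encodes that cotransporter, at 1.33 (SE 0.22, adjusted P = 0.000256). The water channel genes were lower, Aqp4 at −2.43 (SE 0.53, adjusted P = 0.00198) and Aqp2 at −1.18 (adjusted P = 0.0354). The call of Aqp2 ended without Ctrl 1, Ctrl 4, Model 2, Model 3 or Model 4 (log2 fold change from −1.39 to −0.82 and adjusted P up to 0.139 with mice left out), and with upper-quartile scaling or DESeq2 (adjusted P = 0.078 with the latter). Wnk1, another kinase of that pathway, was higher at 0.69 (adjusted P = 0.013), a call that ended without Ctrl 3 (adjusted P = 0.0569) and with library size alone (0.26, 0.264).

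In YHY against Model, Edn1, the endothelin gene, was the only gene of the transport list called by edgeR, higher at 1.08 (SE 0.33, adjusted P = 0.0415), with a list median of 0.32. That call held only without Ctrl 4 or YHY 4 among the 12 runs with a mouse left out, and without Ctrl 1, Ctrl 2, Ctrl 3, any Model mouse, YHY 1, YHY 2 or YHY 3 it ended, with log2 fold changes from 0.86 to 1.25 and adjusted P up to 0.119. It also ended with library size alone (1.08, adjusted P = 0.0783) and with the replicate number as a block (0.0622). DESeq2 called 2, with Slc9a3 also higher (0.44, adjusted P = 0.025), and Slc9a3 passed in edgeR with TMM without mitochondrial transcripts (0.0473), with 10 counts in every sample (0.0401) and without Model 4 (0.0375) or YHY 4 (0.0353). In YHY against Ctrl, 5 of 8 were higher and 1 lower, with a median of 0.70, led by Wnk4 at 1.54 (adjusted P = 6.03e-06) and Aqp2 at −1.42 (adjusted P = 0.0101). With library size alone 3 of these 6 calls ended, those of Slc9a3, Wnk1 and Edn1 (adjusted P = 0.276, 0.349 and 0.153), and that of Edn1 ended without Ctrl 4 or YHY 1 (adjusted P up to 0.0659).

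Glucocorticoids reset peripheral clocks and induce Per1, and 5 of 7 glucocorticoid-responsive genes were higher in Model against Ctrl, with a median of 0.88. Zbtb16, a zinc finger factor, stood at 1.01, 0.125, 0.318 and 1.02 CPM in Ctrl mice 1 to 4, at 3.93, 6.38, 5.62 and 4.19 CPM in Model mice, and at 12.7, 8.57, 8.90 and 11.2 CPM in YHY mice. The 3 groups did not overlap, with Ctrl lowest and YHY highest. Its log2 fold change was 2.98 in Model against Ctrl (SE 0.44, adjusted P = 0.000105). The metallothionein gene Mt2 was higher at 2.12 (adjusted P = 0.000625), the receptor cochaperone gene Fkbp5 at 0.97 (adjusted P = 0.00476), the phosphatase gene Dusp1 at 0.88 (adjusted P = 0.00354) and Klf9 at 0.80 (adjusted P = 0.00316). With library size alone the calls of Fkbp5, Dusp1 and Klf9 ended (adjusted P = 0.119, 0.0696 and 0.131), which left 2 of 7. Hormone levels are not among the data, and a part of glucocorticoids in the levels of Per1 was not tested.

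In YHY against Model, edgeR called 2 of the 7 genes, with a median of 0.52, and DESeq2 called 3. Zbtb16 did not pass in edgeR (1.04, SE 0.39, adjusted P = 0.0916) although the groups did not overlap. It passed with DESeq2 (1.05, adjusted P = 0.0365), with no filter on low counts (0.0321), in a fit of the 8 YHY and Model mice (0.0186) and without Ctrl 2 (0.0365). Klf9, a zinc finger factor with rhythmic expression, was lower at −0.70 (SE 0.19, adjusted P = 0.0215), and the kinase gene Sgk1 was higher at 1.06 (SE 0.33, adjusted P = 0.0432). The call of Klf9 ended without Model 3, YHY 1 or YHY 3 (adjusted P up to 0.0622). That of Sgk1 ended without Ctrl 1, Ctrl 3, any Model mouse, YHY 1, YHY 2 or YHY 4 (log2 fold change from 0.66 to 1.32 and adjusted P up to 0.129 with mice left out) and with library size alone (1.02, 0.0789). In YHY against Ctrl, 6 of 7 were higher, with a median of 1.43, led by Zbtb16 at 4.03 (adjusted P = 4e-06), and the call of Tsc22d3 ended with library size alone (adjusted P = 0.0664).

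Immediate early genes, which respond to acute stimuli and share the cyclic AMP route to Per1, were higher for 3 of 9 in Model against Ctrl, with a median of 0.65. These were Ier3 at 1.27 (SE 0.23, adjusted P = 0.000608), Ier2 at 0.84 (SE 0.15, adjusted P = 0.000483) and Junb at 0.60 (adjusted P = 0.0235). The call of Junb ended without Ctrl 1, Ctrl 2, Model 1 or Model 2 (adjusted P up to 0.105), and those of Ier2 and Junb ended with library size alone (adjusted P = 0.114 and 0.654). In YHY against Model, edgeR called 0 of 9, with 2 at an unadjusted P under 0.05, DESeq2 also called 0, and the median was −0.30. In YHY against Ctrl, 4 of 9 were higher, Atf3, Ier3, Junb and Ier2, with a median of 0.47. All 4 calls ended with library size alone (adjusted P = 0.182, 0.49, 0.713 and 0.883), and each ended when any of 3 to 5 single mice was left out (adjusted P up to 0.129). Those of Junb and Atf3 also ended with the replicate number as a block (adjusted P = 0.0503 and 0.0513).

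Cell type markers were summed in CPM to set the clock genes beside the make-up of the tissue. In bulk tissue, fewer cells of a type and less RNA per cell cannot be told apart. The 7 proximal tubule markers, led by Slc34a1 by FPKM, summed to 4288, 5487, 4562 and 4134 CPM in Ctrl mice 1 to 4, to 3456, 3472, 3758 and 2984 CPM in Model mice, and to 1586, 3079, 2097 and 3969 CPM in YHY mice. All Model and YHY mice lay below all Ctrl mice, at ratios of group means of 0.740 for Model (exact permutation P = 0.0286) and 0.581 for YHY (exact permutation P = 0.0286). Of the 7, edgeR called 3 lower in Model against Ctrl, Lrp2, Cubn and Aqp1, and Slc22a6 also had a lower mean there. The markers did not all fall. Mean CPM was higher in Model than in Ctrl mice for Slc34a1 (2126 against 2041), Slc5a2 (68.6 against 51.3) and Slc5a12 (27.7 against 16.01), none of them called. The same test called 4 lower and 1 higher in YHY against Ctrl. The higher one, Slc5a12 (2.11, adjusted P = 0.0363), rested on YHY 4 with 223 CPM, where YHY 1 to 3 had 9.12 to 24.7 CPM. That call ended without Ctrl 1, Ctrl 3, Ctrl 4, Model 1 or YHY 4 (log2 fold change from 0.13 to 2.48 with mice left out), with library size alone (adjusted P = 0.0664), with DESeq2 (0.059) and with the replicate number as a block (0.289). The call of Aqp1 in Model against Ctrl ended without Ctrl 4 (adjusted P = 0.0527). In YHY against Model, edgeR called 0 of the 7 markers. DESeq2 called 3 lower there, Cubn (−0.63, adjusted P = 0.0307), Slc22a6 (−0.86, 0.0225) and Aqp1 (−0.86, 0.0172). All 7 were detected in every library, and their part in the levels of the clock genes was not tested.

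The 4 markers of the loop of Henle and distal convoluted tubule, led by FPKM by Umod in the Ctrl group and by Slc12a1 in the Model and YHY groups, summed to 1974, 1267, 2226 and 2219 CPM in Ctrl mice, to 1426, 1295, 1117 and 1473 CPM in Model mice, and to 1566, 1316, 2243 and 1441 CPM in YHY mice. The 6 collecting duct markers, led by Aqp2, summed to 882, 581, 602 and 1413 CPM in Ctrl mice, to 592, 378, 472 and 426 CPM in Model mice, and to 597, 245, 376 and 235 CPM in YHY mice. Both sums overlapped between groups, and the collecting duct sum of Model was 0.537 of that of Ctrl (exact permutation P = 0.0571) and that of YHY 0.418 of it (exact permutation P = 0.0571). Single markers moved in opposite directions, with Umod at −2.86 (SE 0.38, adjusted P = 5.43e-05) and Slc12a3 at 1.33 in Model against Ctrl, and Umod at −1.89 (adjusted P = 0.000535), Pvalb at −1.33 (adjusted P = 0.00549) and Slc12a3 at 1.28 (adjusted P = 0.000169) in YHY against Ctrl. Aqp3 was lower than in Ctrl in Model (−1.72, adjusted P = 0.000389) and in YHY mice (−1.93, adjusted P = 7.77e-05). DESeq2 called Umod higher in YHY against Model (0.97, adjusted P = 0.032), which edgeR did not. Between YHY and Model, Pvalb (−1.59, adjusted P = 0.0102) and Atp6v1g3 (−1.13, adjusted P = 0.00568) were lower, and Atp6v1g3 was also lower in YHY than in Ctrl mice (−0.91, adjusted P = 0.00345). Their part in the levels of the clock genes and of Aqp2 and Slc12a3, which are themselves among these markers, was not tested.

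The 4 podocyte markers, led by Podxl, summed to 82.1, 84.7, 108 and 112 CPM in Ctrl mice, to 155, 95.7, 99.6 and 75.5 CPM in Model mice, and to 68.8, 101 and 70.9 CPM in YHY mice 1 to 3 and 115 CPM in YHY 4. The 5 endothelial markers, led by Emcn, summed to 187, 119.5, 184 and 182 CPM in Ctrl mice, to 212, 161, 171 and 151 CPM in Model mice, and to 259, 143, 178 and 136 CPM in YHY mice. The groups overlapped for both sums, while 2 of 4 podocyte markers were called in Model against Ctrl, Nphs1 at 1.86 (adjusted P = 5.44e-05) and Synpo at 0.53 (adjusted P = 0.0435). All 4 were called in YHY against Ctrl, with Podxl lower at −0.999 (adjusted P = 0.00398) and Nphs1 (1.62, adjusted P = 6.54e-05), Wt1 (1.31, adjusted P = 0.00619) and Synpo (0.62, adjusted P = 0.0149) higher. The calls of Synpo and Wt1 ended with library size alone, and those of Synpo also without single mice. The 5 stromal and smooth muscle markers, led by Acta2, summed to 148, 134, 134 and 107 CPM in Ctrl mice, to 139, 160.3, 131 and 125 CPM in Model mice, and to 168, 217.5, 175 and 124 CPM in YHY mice. The 5 macrophage markers, led by C1qa in the Ctrl group and by Cd14 in the others, summed to 103, 78.1, 106 and 92.7 CPM in Ctrl mice, to 80.9, 103, 103 and 146 CPM in Model mice, and to 126, 159.9, 121 and 75.9 CPM in YHY mice. These sums also overlapped between groups, while 3 of 5 macrophage markers were called in each comparison with Ctrl. Cd14 was higher at 1.45 in Model (adjusted P = 0.000757) and 1.88 in YHY mice (adjusted P = 4.67e-05), Cd68 was higher at 1.05 (adjusted P = 0.0073) and 1.79 (adjusted P = 7.67e-05), and C1qa was lower at −1.08 (adjusted P = 0.00147) and −0.65 (adjusted P = 0.0231). The call of Cd68 in Model against Ctrl ended with library size alone (adjusted P = 0.0965), and that of C1qa in YHY against Ctrl with upper-quartile scaling and without Ctrl 3 or YHY 2. Of the stromal markers, Pdgfrb was higher than in Ctrl in Model (0.51, adjusted P = 0.0249) and in YHY mice (0.75, adjusted P = 0.00163), and Myh11 was higher in YHY against Model (0.56, adjusted P = 0.0439), and all 3 calls ended with library size alone (0.06, 0.31 and 0.57). The call of Pdgfrb in Model against Ctrl also ended without Ctrl 1, Ctrl 2, Ctrl 3, Ctrl 4, Model 2 or Model 3 (adjusted P up to 0.104). That of Myh11 held only without YHY 4 among the runs with a mouse left out (adjusted P up to 0.136). A part of any of these cells in the clock genes was not tested.

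Lymphocyte and fat cell markers were near the floor of detection. The 5 lymphocyte markers, led by Cd3g in the Ctrl group and by Cd79a in the others, summed to 2.98, 0.843, 1.42 and 0.865 CPM in Ctrl mice, to 0.386, 0.572, 1.05 and 0.641 CPM in Model mice, and to 1.68, 0.995, 1.04 and 0.349 CPM in YHY mice, with each marker at 0 in at least 1 library. The 4 fat cell markers, led by Cidec with 6 to 31 counts, summed to 0.288, 0.593, 0.465 and 0.182 CPM in Ctrl mice, to 1.19, 2.57, 1.00 and 0.770 CPM in Model mice, and to 0.343, 0.332, 0.744 and 1.51 CPM in YHY mice. All Model mice lay above all Ctrl mice (ratio 3.62, exact permutation P = 0.0286), with Plin1 at 0 in 10 mice, Lep in 9 and Adipoq in 6.

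The 5 adrenal cortex markers summed to 2.62, 2.93, 1.96 and 2.07 CPM in Ctrl mice, to 11.7, 14.5, 14.7 and 24.3 CPM in Model mice, and to 13.3, 17.3, 13.9 and 19.1 CPM in YHY mice. All db/db mice lay above all db/m mice, at a ratio of 6.81 for Model against Ctrl (exact permutation P = 0.0286) and 6.64 for YHY against Ctrl (exact permutation P = 0.0286). The most abundant was Star in the Ctrl group and Hsd3b1 in the others. Hsd3b1, with 11 to 483 counts, was higher in Model against Ctrl (4.22, adjusted P = 2.68e-06) and in YHY against Ctrl (4.26, adjusted P = 6.71e-07). Star, with 52 to 119 counts, was also higher (1.32, adjusted P = 0.00128, and 1.10, adjusted P = 0.00294), and the latter call ended with library size alone (adjusted P = 0.0572). The defining steroid-producing enzymes of that gland were near 0, with Cyp11b2 at 0 in 12 mice, Cyp11b1 at 0 in 11 and Cyp11a1 at 0 in 9. This sum moved with genotype as Per1 and Per2 did, and its part in their levels was not tested.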

How the data were processed

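Kidney messenger RNA of 12 mice in 3 labelled groups was analysed from the raw counts per gene that the authors deposited. The submitters' processing notes name Trimmomatic 0.39, HISAT2 2.2.1, SAMtools and featureCounts 2.0.1 with GRCm39, and DESeq2 1.34.0 for the authors' own comparisons. Annotation release and strand setting are not given in the sources used here. Gene lengths, an other quantity in the same table, were used as the authors deposited them. The authors' comparison and pathway tables hold fold changes, P values and enrichments, none of which were used, nor were the 12 per-mouse columns of scaled values in the comparison tables, some of whose headers did not match the libraries beneath them.

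In R 4.3.3, edgeR 4.0.16 filtered low counts by its default rule on all 12 mice, scaled by TMM and fitted quasi-likelihood models with group as the only term, with Benjamini-Hochberg adjustment over 17431 genes. A call is an adjusted P under 0.05. The fit was also run on simulated counts, the outcome of which is not given here. Exact permutation tests were 2-sided, on CPM for single genes and on summed CPM for markers. For the ratios they were on the log2 ratio with 0.5 CPM added to each gene. Group SDs are over 4 mice. Every replicate pair differed by more than sampling noise (chi-square per degree of freedom from 17.3 to 139). The labels describe separate animals. In every library the 95% binomial interval of the mitochondrial share, which covers counting error only, was far narrower than the spread between mice.

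Named genes were all 10 members, up to 4 called genes per list and comparison by size of log2 fold change, further called genes where a setting ended the call, the most abundant marker and markers at 0, and the 5 genes most and least correlated with Arntl. Dbp was described further after its values were seen. The members and lists were chosen with earlier results of these data known. For 2 planned list genes, results are not reported here, and list counts, medians and marker sums are over the remaining genes. Alternatives were the 9 mice of the authors' means, DESeq2 1.42.0, upper-quartile scaling, library size alone, TMM without mitochondrial transcripts, no filter or a minimum of 10 counts in every sample, a block for the replicate number, leaving out each mouse, fits of the 8 mice of a comparison alone, the fold change limit of 1.2 with unadjusted P under 0.05, pseudocounts of 0 and 2 CPM, and, chosen after seeing the data, the 8 mice under 10 CPM of Arntl, each mouse left out of the correlations, and the 2 mice farthest in the deviation of Arntl left out. Promoters are RefSeq windows of GRCm38.p6, a build other than that of the counts, and were used only as sequences. Figures were drawn with matplotlib 3.10.9 in Python 3.11.15.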

Additional observations from a re-analysis of the deposited data

Results flagged for a closer look

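Among 69 groups of 4 mice tested for a single distant mouse, 3 held a value far from the rest, and chance flags about 1 in 20 groups. No member of the clock genes was among them. Ctrl 2 had a summed level of endothelial markers of 119.5 CPM, where the other Ctrl mice lay between 182 and 187 CPM. Ctrl 2 also had 22.7% of its counts from mitochondrial transcripts, against 18.4% to 18.6% in the other Ctrl mice. YHY 2 had 64.6%, against 53.8% to 54.6% in the other YHY mice.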

How the results depend on the processing

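The number of members called in Model against Ctrl, 7 in the fit reported, was 4 to 8 with each mouse left out, with 4 without Ctrl 1, and 6 to 9 under the other alternatives. That of YHY against Model, 3, was 2 or 3 with each mouse left out, 2 to 4 under other settings, and 5 at a fold change over 1.2 with an unadjusted P under 0.05. That of YHY against Ctrl, 6, was 6 or 7 throughout. With each mouse left out, 17743 to 18070 genes were tested. Of these, 5292 to 7093 were called in Model against Ctrl, 1146 to 2723 in YHY against Model and 7806 to 8915 in YHY against Ctrl. Under the other settings 13623 to 30103 genes were tested, and 5995 to 7709, 1177 to 3081 and 7848 to 9432 were called. At the fold change limit with unadjusted P, 8178, 4988 and 9758 of 17431 genes passed. Of 209 values of single members per comparison, 186, 200 and 198 kept their direction and side of the threshold. Signs turned for uncalled members only. Per1 in YHY against Model lay between −0.017 and 0.55 with mice left out. Arntl in YHY against Ctrl was −0.50 in the 9 mice of the authors' means, −0.15 with library size alone, and −0.24 to 0.63 with mice left out. Nr1d2 in YHY against Ctrl was −0.32 with library size alone and −0.13 to 0.32 with mice left out. The cause of these turns was not tested.

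The log2 ratio of Arntl to Nr1d1 in the 9 mice differed by −2.22 in Model against Ctrl and by 2.01 in YHY against Model, and that of Arntl to Per2 by −3.85 in Model against Ctrl, each with an adjusted exact P of 0.133, since 3 against 3 mice cannot pass the threshold. With mice left out these ranged from −2.47 to −1.74, from 2.26 to 3.60 and from −3.73 to −2.75. The ratio of Arntl to Per2 in YHY against Model stayed above the threshold, with adjusted P from 0.2 to 0.9.

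The correlation of Arntl with Npas2 was 0.77 without the 2 mice farthest from the median of Arntl, and that with Nr1d1 −0.70. Without the 2 mice farthest in the deviation of Arntl, also chosen after seeing the data, they were 0.84 and −0.73. They ranged from 0.88 to 0.99 and from −0.87 to −0.74 with mice left out. In the 8 mice under 10 CPM of Arntl, chosen after seeing the data, r was −0.38 for Clock, 0.37 for Npas2, 0.32 for Per1, 0.70 for Per2, 0.65 for Per3, 0.34 for Cry2, −0.56 for Nr1d1 and 0.60 for Nr1d2. That choice splits the mice by Arntl itself, so these values do not show whether the relations hold.

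With the replicate number as a block, 7 members were called in Model against Ctrl, 2 in YHY against Model and 6 in YHY against Ctrl, and Arntl in YHY against Model had a log2 fold change of 1.74 (adjusted P = 0.0712, and from 0.000169 to 0.158 over all alternatives). The block changed no other call of a member. Over all 17431 genes tested, the fit with the block called 6289, 1920 and 8424 in these comparisons. Same-numbered mice did not deviate together (r from −0.21 to 0.17), and the mouse of the same number was the best match in 1, 0 and 1 of 4 cases, so the numbers were not taken to pair the mice. Depth limits Npas2 most, with as few as 7 counts in a library.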
